A study of Rattus norvegicus with 16 samples.

Results

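The 9 genes described here encode the machinery that moves cholesterol out of cells and carries it between them: the transporters Abca1 and Abcg1, the lipoprotein receptor Scarb1, the apolipoproteins Apoe and Apod, the lipoprotein lipase Lpl, the sterol-sensing nuclear receptors Nr1h2 and Nr1h3, and the ubiquitin ligase Mylip. They were picked by symbol from 31038 measured genes, Abca1 for its strong rise in injured Schwann cells and the others for their part in the recycling of myelin lipid. That choice used the comparison of injured with uncrushed Schwann cells, so the values of that comparison are given as a description, with no p-value for any of the 9 genes. The 16 RNA-seq libraries came from rat sciatic nerve. The labels give postnatal day 18 for every library, and the left nerve of the injured groups was crushed at that age, so injured nerves taken on later days may be from older animals than uncrushed ones. Each of 8 groups had 2 libraries: Schwann cells purified by immunopanning, and undissociated whole nerve, each from uncrushed nerves and from nerves taken 3, 5 or 7 days after crush. The tissue was the nerve distal to the crush or the matching stretch of an uncrushed nerve, and every library pooled nerves of several animals. The uncrushed nerves had no sham operation. Schwann cells were depleted of leukocytes and fibroblasts with antibodies to CD45 and Thy1 and then selected on O4, after the nerve had been dissociated, which whole nerve was not. Dissociated nerve that was not immunopanned was not analysed here, so dissociation and cell purification cannot be told apart in the comparisons of purified Schwann cells with whole nerve given here.

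Cholesterol cannot be broken down by most cells and has to be stored as an ester or exported. Abca1 passes cholesterol and phospholipid to lipid-poor apolipoproteins, Abcg1 passes cholesterol to particles that already carry lipid, and apolipoprotein E is a main acceptor and carrier of this lipid in nervous tissue. The liver X receptors, encoded by Nr1h2 and Nr1h3, bind oxysterols and switch on Abca1, Abcg1, Apoe and Mylip. Myelin is rich in cholesterol, and after a nerve injury the cells of the distal stump break it down and hand the lipid on.

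Most markers of other cells were lower in the purified cells than in whole nerve, and those of fibroblasts were not low. At each time point all 10 macrophage, 6 fibroblast, 6 endothelial and 5 fat cell markers were lower in them than in whole nerve. The summed macrophage markers lay between 3.33 and 16 FPKM (fragments scaled to transcript length and library total) in purified cells and between 189 and 836 FPKM in whole nerve. The summed fibroblast markers were 1330 and 1350 FPKM in uncrushed Schwann cells and 188 to 344 FPKM in injured ones, against 6330 to 7890 FPKM in whole nerve. Of 8 Schwann cell markers, 5 were higher and 3 lower in purified cells than in whole nerve before crush, when they summed to 9030 and 9220 FPKM against 18100 and 21600, and 8, 8 and 6 were higher and 0 lower on days 3, 5 and 7. Of 5 pericyte and smooth muscle markers, 3 were lower and 1 higher before crush, and 5, 5 and 4 lower after it, with sums in purified cells of 51.5 and 61.8 FPKM before crush and 8.87 to 21 after it. Depth ran from 10555067 to 27562637 expected counts per library. Levels of a gene across libraries are given below as normalised CPM, counts scaled to library total with TMM factors over the 16 libraries. FPKM is used where the levels of different genes are compared and for sums over marker lists. The TMM factor was 0.82 in both uncrushed whole nerve libraries and between 0.99 and 1.07 in the others, so FPKM ratios in whole nerve exceed the fitted fold changes. Fold changes, their standard errors (SE) and adjusted p-values are from the quasi-likelihood test of edgeR across all genes, on the log2 scale. With 2 libraries per group, an exact permutation test of single values could not go below p = 0.333.

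The promoter of Abca1, the gene whose rise the selection rests on, is shown for the letters next to its start. The 250 bases before the start of Abca1 in the RefSeq annotation of GRCr8 are given here, chr5:72596474-72596723, minus strand, 5′ to 3′ toward the start. The expression files were made on another build, Rnor_6.0, and share no coordinates with this window. Capitals mark a palindromic E-box, CACGTG, 149 to 144 bases before the start, and a match on the other strand to a relaxed form of the direct repeat that liver X receptors bind, 70 to 56 bases before the start.
Abca1: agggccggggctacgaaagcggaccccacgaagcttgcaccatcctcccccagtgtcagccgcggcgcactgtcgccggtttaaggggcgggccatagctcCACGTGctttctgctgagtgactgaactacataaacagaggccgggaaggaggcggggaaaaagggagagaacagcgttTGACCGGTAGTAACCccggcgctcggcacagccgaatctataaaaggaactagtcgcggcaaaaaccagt
Both strands were searched for CACGTG, for a strict repeat of AGGTCA with 4 bases between the copies, and for a relaxed form, GGTNA and GGTNA with 5 bases between, in which N is any base. The strict repeat is contained in the relaxed form. CACGTG occurred in 5.59% of 33469 promoter windows of this length, the relaxed repeat in 0.592% and the strict repeat in 0.00299%. Windows were found for 6 of the 9 genes, Abca1, Apoe, Apod, Nr1h2, Nr1h3 and Mylip, and Abca1 alone among these 6 held a match. A match is a description of letters and not of a bound site.

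Abca1 had the highest mean FPKM of the 9 genes in Schwann cells on each injured day, although in day 3 replicate 2 Apod was level with it (261.56 against 258.34 FPKM). Purified cells from uncrushed nerves held 299 and 331 normalised CPM. On day 3 they held 2780 and 2660, on day 5 2330 and 2290, and on day 7 2510 and 2550 normalised CPM. The 6 injured libraries therefore lay far above the uncrushed pair. The fitted log2 difference from uncrushed was 3.14 (SE 0.102) on day 3, 2.90 (SE 0.101) on day 5 and 3.03 (SE 0.102) on day 7, which is 8.84-fold, 7.48-fold and 8.16-fold.

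In whole nerve, which the selection did not use, Abca1 rose as well. Its level was 89.8 and 85.3 normalised CPM in uncrushed nerve, 960 and 1040 on day 3, 1080 and 1330 on day 5, and 1080 and 1140 on day 7. No injured library overlapped the uncrushed pair. In whole nerve, more cells of a type and more RNA per cell cannot be told apart, for this gene and those below. The rise was 10.9-fold on day 3 (log2 3.44, SE 0.119, adjusted p = 1.46e-08), 12.8-fold on day 5 (log2 3.68, SE 0.121, adjusted p = 1.37e-08) and 11.9-fold on day 7 (log2 3.57, SE 0.12, adjusted p = 3.35e-08). No pair of injured days differed at the threshold in whole nerve, the closest being day 5 above day 3 by 0.24 (SE 0.107, adjusted p = 0.181). Purified cells stood above whole nerve at every time point, by log2 1.85 (SE 0.108) before crush and by 1.44, 0.94 and 1.19 on days 3, 5 and 7. The order of the 8 group means was Schwann cells on days 3, 7 and 5, whole nerve on days 5, 7 and 3, uncrushed Schwann cells, and uncrushed whole nerve. Among neighbours in that order only whole nerve on days 5 and 7 had ranges that overlapped.

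**Figure D1:**
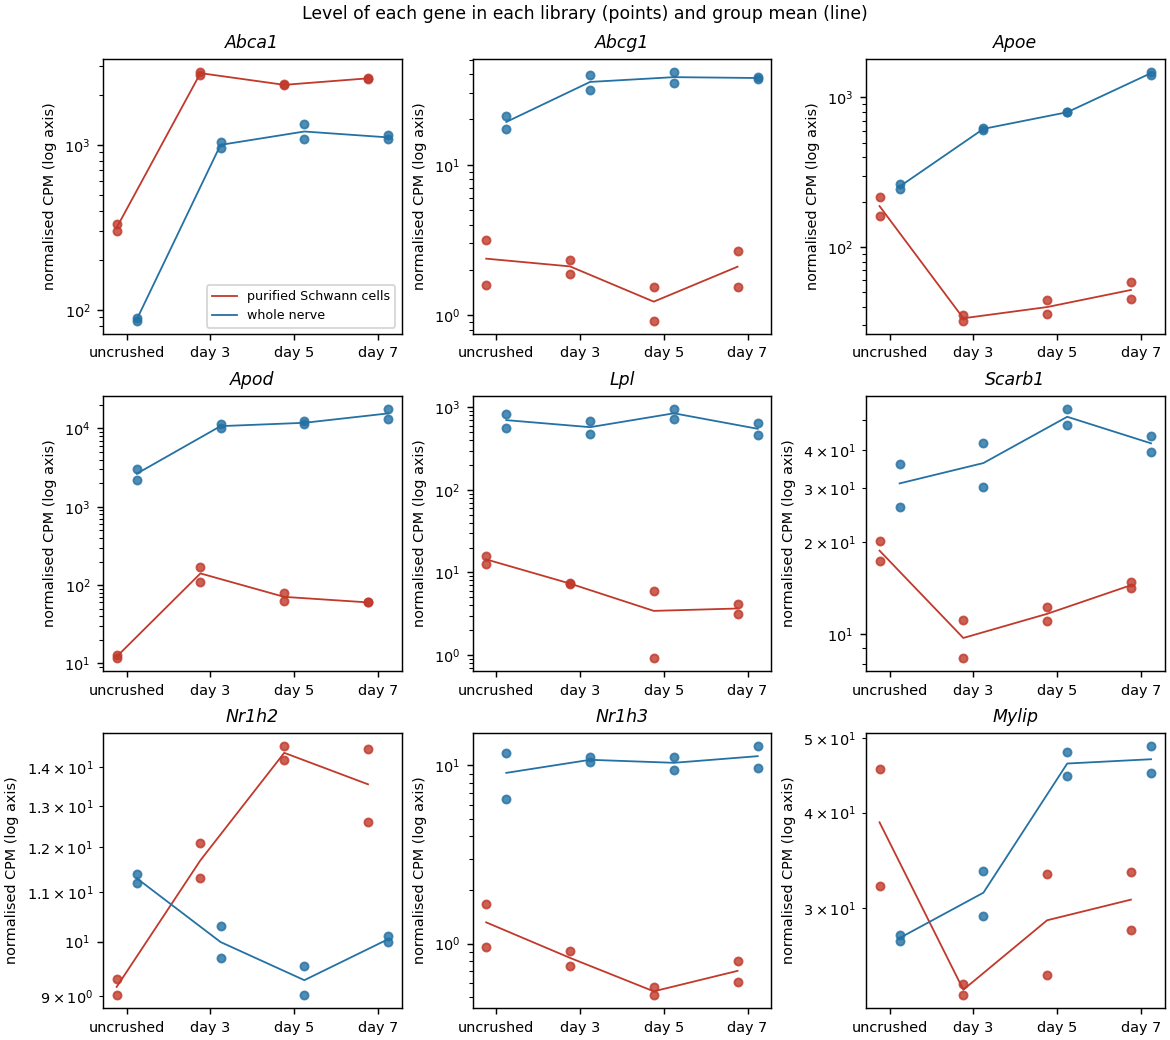
Normalised CPM of the 9 genes on log axes, by time point, with 1 point per library (2 per group) and lines through the group means, red for purified Schwann cells and blue for whole nerve. Abca1 rose in both tissues, whereas the Apoe lines part after crush, from 161 and 215 in uncrushed Schwann cells to 31.9 and 35 on day 3, and from 245 and 263 in uncrushed whole nerve to 604 and 630.

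Abcg1, the second exporter, was scarce in the purified cells. Its level was 3.16 and 1.59 normalised CPM in uncrushed Schwann cells, 1.88 and 2.34 on day 3, 1.55 and 0.91 on day 5 and 1.54 and 2.66 on day 7, or 16 to 64 counts per library. The ranges of uncrushed cells overlapped those of days 3 and 7. At that depth the fitted differences were -0.14 (SE 0.451), -0.92 (SE 0.473) and -0.18 (SE 0.461). Without Schwann cell uncrushed replicate 1, those of days 3 and 7 were 0.45 and 0.41. Whole nerve held 21.1 and 17.4 normalised CPM of Abcg1 before crush, 31.4 and 39.6 on day 3, 41.6 and 34.8 on day 5, and 38.2 and 37.2 on day 7. All injured libraries were above the uncrushed pair, and the rise was 1.75-fold on day 3 (log2 0.81, SE 0.152, adjusted p = 0.00153), 1.84-fold on day 5 (log2 0.88, adjusted p = 0.0012) and 1.83-fold on day 7 (log2 0.87, adjusted p = 0.00165). Abcg1 was lower in purified cells than in whole nerve at all 4 time points, with log2 differences of -3.00 before crush (SE 0.288, adjusted p = 5.19e-07) and -4.05, -4.93 and -4.21 after it (adjusted p between 5.22e-09 and 1.97e-08). The crush effect, taken as that in Schwann cells minus that in whole nerve, differed by -1.94 on day 5 (SE 0.434, adjusted p = 0.00414) and by -1.21 on day 7 (SE 0.42, adjusted p = 0.0474). On day 3 the same difference, -1.05, did not pass (adjusted p = 0.0723), though it did in DESeq2 (adjusted p = 0.0428) and in 3 other alternatives. Without Schwann cell uncrushed replicate 1 the difference was -1.33 on day 5 (adjusted p = 0.0751) and -0.60 on day 7 (adjusted p = 0.429), and neither passed. The day 7 call was kept in 5 of 13 alternatives, and was also lost with upper quartile scaling (adjusted p = 0.0556), with the replicate block (0.0705) and when any 1 of 5 other libraries was left out.

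Scarb1 encodes the receptor SR-B1, which takes up cholesterol ester from high-density lipoprotein and lets free cholesterol pass in both directions. In Schwann cells it stood at 17.3 and 20.2 normalised CPM before crush, 8.33 and 11.1 on day 3, 11.0 and 12.3 on day 5, and 14.1 and 14.8 on day 7. All injured libraries were under the uncrushed pair, and the fitted differences were -0.90 (SE 0.173), -0.66 (SE 0.172) and -0.35 (SE 0.172). Day 7 was above day 3 by 0.55 (SE 0.174, adjusted p = 0.0499), a call kept in 5 of 11 alternatives. It was lost in DESeq2 (adjusted p = 0.0963), with all 16 libraries in 1 fit (0.0609) and with only the groups compared (0.0539). It was also lost without Schwann cell day 3 replicate 1 (0.38), day 7 replicate 1 (0.59) or day 7 replicate 2 (0.51). Whole nerve held 36.1 and 26.1 normalised CPM before crush, 42.3 and 30.2 on day 3, 54.6 and 48.1 on day 5 and 44.6 and 39.5 on day 7. There the gene rose on day 5 (log2 0.62, SE 0.181, adjusted p = 0.022), and without whole nerve uncrushed replicate 2 this call was lost (log2 0.42, adjusted p = 0.136), as it was without day 5 replicate 1 (log2 0.54, adjusted p = 0.114). Differences of 0.14 on day 3 (adjusted p = 0.562) and 0.33 on day 7 (adjusted p = 0.201) did not pass, that of day 7 passing with no filter (adjusted p = 0.0352) and with the replicate block (0.0393). Set against whole nerve, the crush effect on Scarb1 in Schwann cells differed by -1.15 on day 3 (SE 0.273, adjusted p = 0.00632), -1.40 on day 5 (SE 0.272, adjusted p = 0.00153) and -0.80 on day 7 (SE 0.272, adjusted p = 0.0426), and all but the last kept its call in every alternative, that of day 7 being kept in 5 of 13.

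Apoe, the apolipoprotein that carries cholesterol between cells, moved in opposite directions in the purified cells and in the nerve. Uncrushed Schwann cells held 161 and 215 normalised CPM, against 31.9 and 35 on day 3, 44.0 and 35.5 on day 5 and 58.4 and 45.0 on day 7. The highest injured library was under the lowest uncrushed library, and the fitted differences were -2.46 (SE 0.183), -2.21 (SE 0.181) and -1.84 (SE 0.179), or 5.48-fold, 4.64-fold and 3.57-fold lower. In the same purified cells the summed fibroblast markers went from 1330 and 1350 FPKM to 214 and 242 on day 3, and the pericyte and smooth muscle markers from 51.5 and 61.8 FPKM to 8.87 and 20.4. On that day 2 of 6 fibroblast, 2 of 5 pericyte and 2 of 4 tested endothelial markers were lower at the threshold and 0 higher. Of all 14961 genes tested, 3840 were lower. The median log2 differences of these 3 marker lists were -0.03, -0.24 and 0.21, so the sums fell further than the typical marker. The part of RNA from these cells in the level of Apoe was not tested. Whole nerve rose from 245 and 263 normalised CPM to 604 and 630 on day 3, 797 and 797 on day 5, and 1490 and 1420 on day 7, with no overlap between any of its time points. Those rises were 2.32-fold (log2 1.21, SE 0.0834, adjusted p = 1.34e-06), 2.93-fold (log2 1.55, adjusted p = 3.31e-07) and 5.38-fold (log2 2.43, SE 0.0864, adjusted p = 4.69e-08).

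Before crush, Apoe in purified cells was close to whole nerve, with a log2 difference of -0.43 (SE 0.144, adjusted p = 0.0164) that did not pass without Schwann cell uncrushed replicate 1 (-0.25, adjusted p = 0.165), without whole nerve uncrushed replicate 2 (-0.38, adjusted p = 0.084) or with the replicate block (adjusted p = 0.0593). After crush it was 18.4-fold lower on day 3 (log2 -4.20, SE 0.163, adjusted p = 9.12e-11), 20-fold lower on day 5 and 28.1-fold lower on day 7. Between the tissues the crush effect on Apoe differed by -3.77 (SE 0.211, adjusted p = 3.57e-08) on day 3, -3.89 (adjusted p = 2.75e-08) on day 5 and -4.38 (adjusted p = 2.01e-08) on day 7, and each of these calls held in every alternative. Within injured whole nerve Apoe went on rising, by 0.88 from day 5 to day 7 (SE 0.0821, adjusted p = 0.000343). In Schwann cells day 7 was above day 3 by 0.62 (SE 0.179, adjusted p = 0.0356), and this call was lost without Schwann cell day 7 replicate 1 (0.42, adjusted p = 0.242) and in 3 other alternatives. The summed macrophage markers in whole nerve were also above uncrushed, where they were 189 and 212 FPKM, with 822 and 836 on day 3, 485 and 528 on day 5 and 521 and 536 on day 7, and 10, 10 and 9 of the 10 markers were higher at the threshold. From day 3 to days 5 and 7, 9 of the 10 fell, while Apoe rose. Their part in the rises of Apoe, Abca1 and Abcg1 was not tested. In purified cells the macrophage sums were at most 16 FPKM, and 1 of 7 tested markers was higher on day 3.

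Apod encodes a small lipid-binding apolipoprotein that is known for its rise in injured nerve. It was the most abundant of the 9 genes in whole nerve by FPKM, with a mean of 3288 ± 757 (SD, n = 2) before crush, and on day 7 it took 1.33% and 1.83% of all counts. In normalised CPM whole nerve held 2220 and 3070 before crush, 11400 and 10000 on day 3, 11300 and 12300 on day 5, and 13200 and 17900 on day 7. The injured libraries were all far above the uncrushed pair. Apod rose 3.85-fold on day 3 (log2 1.95, SE 0.176, adjusted p = 9.37e-06), 4.17-fold on day 5 (log2 2.06, adjusted p = 8.85e-06) and 5.50-fold on day 7 (log2 2.46, SE 0.179, adjusted p = 4.1e-06).

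Purified Schwann cells held far less Apod but showed a course of their own. Their libraries had 11.6 and 12.8 normalised CPM before crush, 110 and 172 on day 3, 79.6 and 62.0 on day 5, and 60.0 and 60.3 on day 7. The fitted differences from uncrushed were 3.57 (SE 0.226), 2.57 (SE 0.222) and 2.33 (SE 0.222), with no overlap. From the high on day 3 the level fell by 1.00 to day 5 (SE 0.196, adjusted p = 0.0111) and by 1.24 to day 7 (SE 0.198, adjusted p = 0.00203). Without Schwann cell day 3 replicate 2, the difference to day 5 was -0.64 and did not pass (adjusted p = 0.0765), and without Schwann cell day 5 replicate 2 it was -0.83 (adjusted p = 0.0893). Against whole nerve, Apod was 217-fold lower before crush and 75.8-fold, 167-fold and 258-fold lower on days 3, 5 and 7 (adjusted p between 2.9e-11 and 1.6e-10). Crush had a larger effect on Apod in Schwann cells on day 3, by 1.52 (SE 0.309, adjusted p = 0.0022), and did not differ at the threshold on day 5 (0.38, SE 0.31, adjusted p = 0.402) or day 7 (-0.25, SE 0.313, adjusted p = 0.612). On day 3 the library with more Apod, replicate 2, exceeded replicate 1 in the sums of fibroblast (242 against 214 FPKM), macrophage (16 against 3.33), endothelial (4.15 against 0.84), pericyte and smooth muscle (20.4 against 8.87) and fat cell markers (3.57 against 1.25). The part of RNA from other cells in the level of Apod was not tested, and without that library the log2 difference of day 3 from uncrushed was 3.21.

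Lpl encodes the enzyme that frees fatty acids from triglyceride-rich lipoproteins, and it was a whole nerve transcript in these data. Whole nerve held 830 and 570 normalised CPM before crush, 674 and 477 on day 3, 965 and 729 on day 5, and 462 and 638 on day 7. All these ranges overlapped that of uncrushed nerve, and the differences of -0.35 (SE 0.222, adjusted p = 0.223), 0.18 (adjusted p = 0.57) and -0.44 (adjusted p = 0.164) did not pass. With no filter those of day 3 (-0.31, adjusted p = 0.00826) and day 7 (-0.42, adjusted p = 0.000327) did. By mean FPKM day 3 was above uncrushed, with 209.7 against 201.9, so that direction turned with the scaling. Fat cell markers in whole nerve, which summed to 1810 and 942 FPKM before crush and 1520 to 2510 FPKM after it, were higher in the replicate with more Lpl before crush and on days 3 and 5, and in the replicate with less Lpl on day 7. Their part in the level of Lpl was not tested. Purified cells held 16 and 12.8 normalised CPM of Lpl before crush, 7.20 and 7.48 on day 3, 5.94 and 0.91 on day 5, and 4.20 and 3.12 on day 7. The fitted differences were -0.93 (SE 0.516), -2.02 (SE 0.55) and -1.94 (SE 0.555), and without Schwann cell day 5 replicate 2, the library with 16 counts, that of day 5 was -1.24, against -3.94 without replicate 1. Fat cell markers there summed to at most 3.57 FPKM, with Adipoq, the fat cell hormone, at 0 to 0.207 normalised CPM. Lpl was below whole nerve, with log2 differences of -5.60 before crush (SE 0.428, adjusted p = 5.08e-08) and -6.29, -7.92 and -7.20 after it (adjusted p between 6.86e-09 and 2.51e-08). Its crush effect was lower in purified cells than in the nerve on day 5 (-2.31, SE 0.582, adjusted p = 0.00856, between -4.24 without Schwann cell day 5 replicate 1 and -1.55 without replicate 2), and did not differ at the threshold on day 3 (-0.69, adjusted p = 0.396) or day 7 (-1.60, adjusted p = 0.0597). With no filter both passed (adjusted p = 0.00366 and 1.14e-13), and that of day 7 also with at least 10 counts in every library (0.0336), with the replicate block (0.0412) and without whole nerve uncrushed replicate 1 (0.0482).

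Of the liver X receptors, Nr1h2 (LXRβ) was the one detected well in purified Schwann cells. It stood at 9.01 and 9.31 normalised CPM before crush, 11.3 and 12.1 on day 3, 14.6 and 14.2 on day 5 and 12.6 and 14.5 on day 7. Every injured library was above the uncrushed pair, by fitted differences of 0.39 (SE 0.149), 0.68 (SE 0.148) and 0.58 (SE 0.15). Whole nerve went from 11.4 and 11.2 normalised CPM to 10.3 and 9.68, then 9.02 and 9.54, then 10.1 and 9.99. Per FPKM the same libraries held 5.37 and 5.28, then 6.09 and 5.84, 5.28 and 5.57, and 5.92 and 5.88, so by mean FPKM the direction on all 3 days turned with the scaling. The fitted differences of -0.25 (SE 0.149, adjusted p = 0.207), -0.38 (SE 0.151, adjusted p = 0.0706) and -0.26 (SE 0.152, adjusted p = 0.228) did not pass. The crush effect on Nr1h2 was higher in Schwann cells by 0.94 on day 5 (SE 0.196, adjusted p = 0.0026) and by 0.73 on day 7 (SE 0.197, adjusted p = 0.0141), while on day 3 the difference of 0.53 missed the threshold (adjusted p = 0.0594). The call of day 7 was lost in DESeq2 (0.69, adjusted p = 0.0569), with no filter (adjusted p = 0.0916) and without Schwann cell day 7 replicate 2 (0.0542). Nr1h2 was higher in purified cells than in whole nerve on day 5 (0.63, SE 0.135, adjusted p = 0.00123) and on day 7 (0.42, SE 0.137, adjusted p = 0.018), the latter call being kept in 3 of 9 alternatives, with adjusted p up to 0.137.

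Nr1h3 (LXRα), the receptor known from macrophages, liver and fat, was a rare transcript in purified cells. They held 0.963 and 1.67 normalised CPM before crush, 0.752 and 0.912 on day 3, 0.568 and 0.512 on day 5, and 0.798 and 0.609 on day 7, or 8 to 25 counts per library. The fitted differences from uncrushed, -0.60, -1.24 and -0.85, had standard errors of 0.492 to 0.519. Whole nerve held 11.7 and 6.46 normalised CPM of Nr1h3 before crush and from 9.48 to 12.9 after it, and no day differed from uncrushed at the threshold (0.15, 0.07 and 0.19, adjusted p = 0.666, 0.865 and 0.612). Nr1h3 was lower in purified cells, with log2 differences of -2.82 before crush (SE 0.332, adjusted p = 4.15e-06) and -3.66, -4.24 and -3.96 on days 3, 5 and 7 (adjusted p between 1.77e-07 and 3.19e-07). The difference of its crush effects missed the threshold on each day, with -0.84, -1.42 and -1.15 (adjusted p = 0.221, 0.0511 and 0.11). That of day 5 passed with the replicate block (adjusted p = 0.0318), with no filter (0.0279) and without replicate 1 of uncrushed Schwann cells (0.0319) or of uncrushed whole nerve (0.0115), and that of day 7 without the latter library (0.0246). By FPKM, which allows the comparison of both receptors, uncrushed Schwann cells held 5.35 ± 0.0283 (SD, n = 2) of Nr1h2 and 0.94 ± 0.396 of Nr1h3. Uncrushed whole nerve held 5.325 ± 0.0636 and 5.555 ± 1.92 FPKM.

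Mylip, also called Idol, encodes a ubiquitin ligase that liver X receptors induce and that lowers lipoprotein uptake. Schwann cells held 32.1 and 45.6 normalised CPM before crush, 23.9 and 23.1 on day 3, 24.6 and 33.3 on day 5 and 28.1 and 33.5 on day 7. The ranges overlapped on days 5 and 7, and the fitted differences were -0.69 (SE 0.194), -0.40 (SE 0.193) and -0.31 (SE 0.194). Whole nerve held 27.7 and 27.2 normalised CPM of Mylip before crush, 29.3 and 33.6 on day 3, 48.0 and 44.7 on day 5 and 48.9 and 45.0 on day 7. The gene rose there 1.58-fold on day 5 (log2 0.66, SE 0.11, adjusted p = 0.000988) and 1.60-fold on day 7 (log2 0.68, SE 0.11, adjusted p = 0.000999), with a day 3 difference of 0.13 (adjusted p = 0.381). Day 7 was above day 3 by 0.55 (SE 0.106, adjusted p = 0.00473), and without whole nerve day 3 replicate 1 by 0.45 (adjusted p = 0.063). Crush effects on Mylip in Schwann cells differed from those in whole nerve by -0.92 on day 3 (SE 0.239, adjusted p = 0.011, and 0.0505 without whole nerve day 3 replicate 2), -1.18 on day 5 (SE 0.238, adjusted p = 0.00208) and -1.11 on day 7 (SE 0.239, adjusted p = 0.00345). Mylip was higher in purified cells than in whole nerve before crush by 0.50 (SE 0.172, adjusted p = 0.0204) and lower on days 3, 5 and 7, with differences of -0.42, -0.68 and -0.61 (adjusted p = 0.0424, 0.00324 and 0.00679). The difference before crush was lost without Schwann cell uncrushed replicate 2 (0.23, adjusted p = 0.283), without either uncrushed whole nerve library (adjusted p = 0.0748 and 0.0755) and with the replicate block (0.0833), and that of day 3 was kept in 4 of 9 alternatives, with adjusted p up to 0.22. The call of day 5 was lost without Schwann cell day 5 replicate 1 (adjusted p = 0.0584) and that of day 7 without Schwann cell day 7 replicate 1 (adjusted p = 0.0729).

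Taking the 9 genes as a group, all of them passed the expression filter of the 3 fits reported here, and Nr1h3 dropped out where 10 counts were required in every Schwann cell library. In whole nerve, 4 of 9 rose on day 3, where 23.1% of all tested genes rose and 45.6% were called in either direction. On day 5, 6 of 9 rose (18.9% of all genes rose and 38.4% were called), and on day 7, 5 of 9 (15.4% and 31.3%). Abca1, Abcg1, Apoe and Apod rose on all 3 days, which share the uncrushed libraries, and Mylip and Scarb1 made up the rest. The median log2 difference of the 9 genes was 0.15, 0.66 and 0.68, beside 0, -0.01 and 0.02 over all genes tested. In Schwann cells the selection used this contrast, so calls among the 9 genes are not counted there. Of all genes tested, 52.5%, 54.6% and 46.9% were called in it on days 3, 5 and 7.

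**Figure D2:**
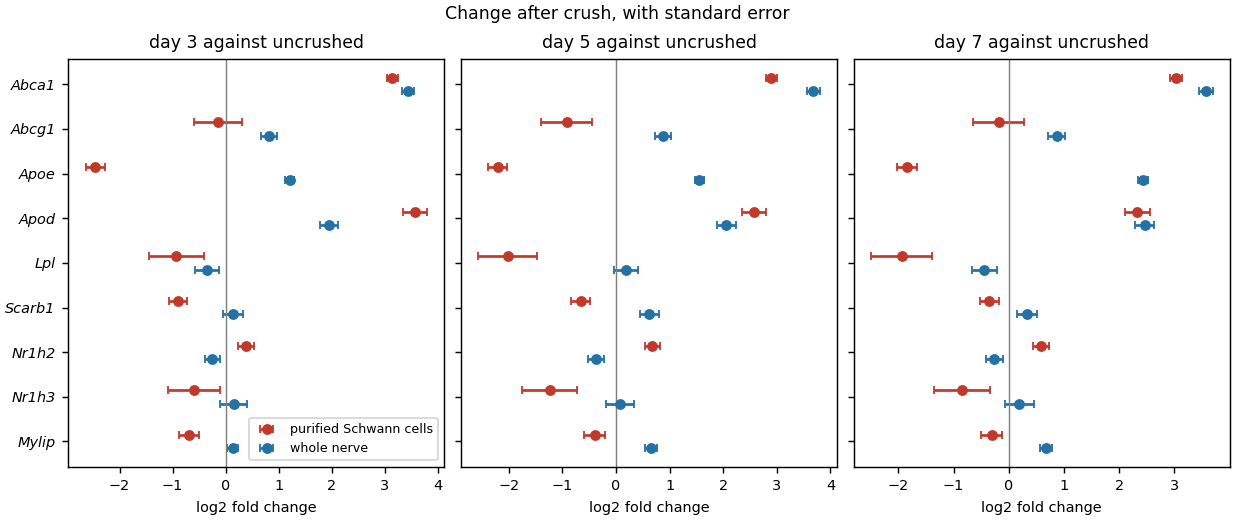
Log2 fold change of each gene on days 3, 5 and 7 against uncrushed, in purified Schwann cells (red) and whole nerve (blue), with bars for 1 standard error on each side. Abca1 and Apod lie to the right of 0 in both tissues on each day, while Apoe lies at -2.46 in Schwann cells and 1.21 in whole nerve on day 3.

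The effect of crush differed between the tissues, leaving Abca1 out, for 4 of 8 genes on day 3 (26% of all genes), 6 of 8 on day 5 (27.5%) and 5 of 8 on day 7 (26%). It was lower in Schwann cells for Apoe, Scarb1 and Mylip on each day. It was higher for Apod on day 3 and for Nr1h2 on days 5 and 7. For Abca1 the fitted difference of the effects was -0.40 (SE 0.147), -0.90 and -0.66, given without a test since the choice rested on its rise in Schwann cells. For the other 8 genes this difference also contains the Schwann cell contrast used in the choice, and their p-values carry that limit. Levels in purified cells and whole nerve differed at the threshold for 7 of the 8 genes before crush (64.4% of all genes), 7 on day 3 (57.3%), 8 on day 5 (51.7%) and 8 on day 7 (51%). Lower in Schwann cells at all 4 time points were Abcg1, Apoe, Apod, Lpl, Nr1h3 and Scarb1, of which Apoe lost its call before crush as given above and Scarb1 without whole nerve uncrushed replicate 1 (-0.48, adjusted p = 0.0824).

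**Figure D3:**
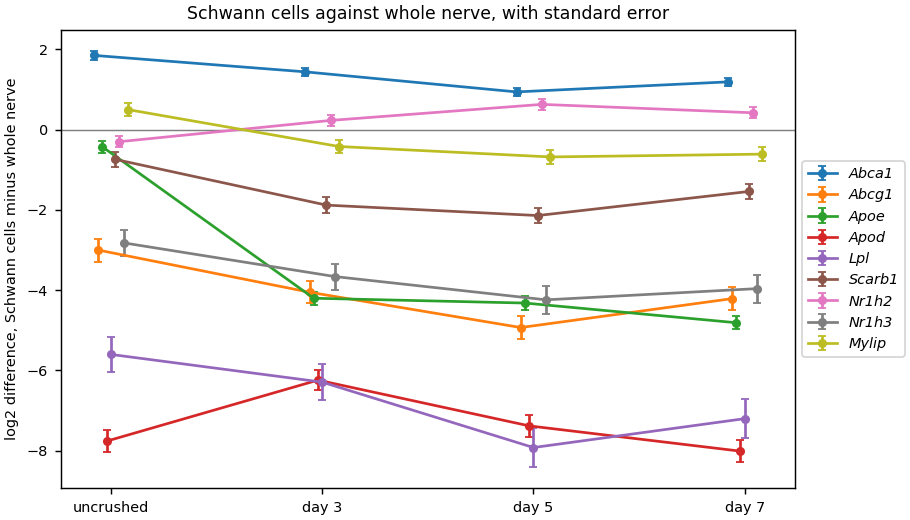
Log2 difference between purified Schwann cells and whole nerve for the 9 genes at each time point, with bars for 1 standard error on each side; values above 0 are higher in Schwann cells. Abca1 stays above 0 throughout, from 1.85 before crush to 1.19 on day 7, and Apoe drops from -0.43 to -4.20 between uncrushed and day 3.

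Fewer genes differed between injured days than from uncrushed, among all genes tested in each tissue and likewise among the 9 genes in whole nerve. In Schwann cells 1 of the 8 genes other than Abca1 differed between days 3 and 5 (background 12.5%), and 3 between days 3 and 7 (background 21%), namely Apod, Apoe and Scarb1 as given above. Between days 5 and 7 the count was 0 by edgeR and 0 at an unadjusted p under 0.05, where 1.95% of all genes were called. In whole nerve 2 of 9 differed between days 3 and 5 (background 11.5%), 1 between days 5 and 7 (background 7.4%) and 2 between days 3 and 7 (background 21.2%), and these were Apoe and Mylip, or Apoe alone from day 5 to day 7. Without 1 library the count from day 3 to day 5 in whole nerve was 0 or 1.

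Compared per length, the order of the genes changed with injury in Schwann cells. Uncrushed Schwann cells held most Apoe (200 ± 34.3 FPKM, SD, n = 2), then Abca1 (31.24 ± 1.39) and Apod (18.76 ± 0.813). On day 3 Abca1 came to 266.2 ± 11.1 FPKM and Apod to 215.4 ± 65.3, with ranges that overlapped, and Apoe to 35.53 ± 1.87. In whole nerve Apod led before crush, ahead of Apoe (217.9 ± 10.8) and Lpl (201.9 ± 52.7). The ranges of Apoe and Lpl overlapped, and replicate 1 held more Lpl than Apoe (239.14 against 210.28 FPKM). On day 3 the order of the means of these genes was the same, with 16770, 668.5 and 209.7 FPKM. There Abca1 stood at 7.015 ± 0.247 FPKM before crush.

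The other genes of the pathway were read from 8 lists. Cholesterol synthesis was the list that moved as a whole: 14 of 14 genes fell in Schwann cells on each day and 14 of 14 in whole nerve, with median log2 differences of -2.23, -2.48 and -2.29 in Schwann cells and -2.95, -3.35 and -2.75 in whole nerve. Over all genes, 3840, 3834 and 3269 of 14961 tested fell in Schwann cells on days 3, 5 and 7. In whole nerve 3558, 3089 and 2510 of 15831 fell. Fdft1, which makes squalene, went from 309 and 345 normalised CPM in uncrushed Schwann cells to 24.3 and 23.1 on day 3 (log2 -3.75, SE 0.119, adjusted p = 4.97e-08). Mvk, the mevalonate kinase, had the smallest fall of the list in Schwann cells on that day (-1.61, SE 0.201, adjusted p = 0.000113). In whole nerve the ends of the list were Hmgcs1, the synthase of the first steps (-4.94, SE 0.0975, adjusted p = 9.03e-10), and Srebf2, the transcription factor of sterol synthesis (-1.55, SE 0.141, adjusted p = 1e-05).

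Genes for the release and storage of cholesterol ester moved in both directions. Lipa, the lysosomal acid lipase that frees cholesterol from its esters, rose in Schwann cells from 18.6 and 16.4 normalised CPM to 331 and 358 on day 3, 248 and 253 on day 5 and 115 and 148 on day 7 (log2 4.33, SE 0.15, adjusted p = 5.46e-08 on day 3). In whole nerve its day 3 rise was 2.46 (SE 0.104, adjusted p = 4.31e-08), and the effect was larger in Schwann cells by 1.77 (SE 0.176, adjusted p = 4.88e-06). It was the 1 gene of 7 tested lipases and partners that rose in Schwann cells on day 3, and 3 fell, Lipe, the hormone-sensitive lipase, by 1.53 (adjusted p = 0.0321). That call was kept in 6 of 10 alternatives, being lost in DESeq2 (adjusted p = 0.0791), without Schwann cell uncrushed replicate 2 (-0.96, adjusted p = 0.286) and without either day 3 library (0.0888 and 0.154). Mgll, monoacylglycerol lipase, had the largest fall of the list in whole nerve (-2.36, SE 0.132, adjusted p = 2.89e-07). Of 12 tested genes of intracellular transport and storage, 6 rose and 2 fell in Schwann cells on day 3, between Nceh1, a neutral cholesterol ester hydrolase (3.11, SE 0.247, adjusted p = 5.55e-06), and Gramd1b, which carries sterol from the plasma membrane to the endoplasmic reticulum (-2.44, SE 0.124, adjusted p = 3.13e-07). In whole nerve 5 rose and 4 fell, from Nceh1 (1.74, adjusted p = 8.51e-05) to Cav1, the coat protein of caveolae (-1.03, SE 0.0876, adjusted p = 6.23e-06), which rose in Schwann cells (1.60, SE 0.117, adjusted p = 3.26e-06).

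Among the other lipid transporters of the ABC family, 2 rose and 4 fell of 7 tested in Schwann cells on day 3. Abca8a, which has been linked to the export of cholesterol and sphingomyelin, went from 2650 and 2650 normalised CPM to 40.9 and 22.5, a log2 difference of -6.37 (SE 0.27, adjusted p = 1.22e-07), while whole nerve went from 403 and 511 to 236 and 251 (-0.98, SE 0.114, adjusted p = 5.98e-05). The similar gene Abca9, named after its values were seen and with fractional expected counts in some libraries, which mark reads shared with another gene, went from 117 and 138 to 1.63 and 1.97 normalised CPM in Schwann cells. Abca7 had the largest rise of the list in Schwann cells (0.86, SE 0.317, adjusted p = 0.0447), a call kept in 5 of 11 alternatives, with adjusted p up to 0.219 without Schwann cell uncrushed replicate 1 (0.61). Whole nerve had 1 gene that rose and 5 that fell of 10, from Abca3, the surfactant lipid transporter (0.51, SE 0.117, adjusted p = 0.00496), to Abcg4, a homologue of Abcg1 (-1.15, SE 0.274, adjusted p = 0.00615, and -0.78 with 0.0557 without whole nerve uncrushed replicate 2).

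In Schwann cells 3 of 13 tested lipoprotein and scavenger receptors rose and 4 fell on day 3, where 52.5% of all genes were called, and in whole nerve 7 of 15 rose and 5 fell, where 45.6% were. Olr1, a receptor of oxidised lipoprotein, had the largest rise of those that passed in both, 1.04 in Schwann cells (adjusted p = 0.0311, kept in 7 of 11 alternatives, and 0.329 without Schwann cell day 3 replicate 2) and 3.16 in whole nerve (SE 0.281, adjusted p = 8.43e-06). Lrp2, or megalin, had the largest fall in whole nerve (-4.32, SE 0.519, adjusted p = 7.56e-05).

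Of other apolipoproteins and lipid transfer genes, 3 rose and 3 fell of 6 tested in Schwann cells on day 3, and 3 rose and 1 fell of 7 in whole nerve. Apoc1, which lies beside Apoe in the genome and is carried on the same particles, went the way of Apoe in each tissue: from 2.27 and 1.99 normalised CPM in uncrushed Schwann cells to 0.0626 and 0.547 on day 3 (-2.58, SE 0.694, adjusted p = 0.011), and up by 3.09 in whole nerve (SE 0.384, adjusted p = 9.53e-05). These values rest on as few as 1 count in Schwann cells and 3 in whole nerve. When 1 library was left out, the difference lay between -4.89 without Schwann cell day 3 replicate 2 and -1.94 without replicate 1, and in whole nerve between 2.28 without uncrushed replicate 1 and 4.23 without replicate 2. Apoh, a plasma apolipoprotein, had 1 and 0 counts in the uncrushed Schwann cell libraries, so its fitted rise is not given, and 20 and 13 counts on day 3. Lcat, which esterifies cholesterol on lipoproteins, had the largest fall in whole nerve (-2.00, SE 0.297, adjusted p = 0.000325).

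Oxysterols are the ligands of the liver X receptors. Of 6 tested oxysterol enzymes in Schwann cells on day 3, 1 rose and 2 fell. Cyp27a1, which makes 27-hydroxycholesterol, rose by 1.11 (SE 0.136, adjusted p = 0.000101), and Cyp7b1, which breaks down oxysterols, fell from 24.8 and 37.7 normalised CPM to 1.75 and 2.66 (-3.74, SE 0.256, adjusted p = 2.03e-06). Cyp7b1 rose in whole nerve (0.95, SE 0.133, adjusted p = 0.000215), and the effects differed by -4.79 (SE 0.293, adjusted p = 7.02e-08). In whole nerve 1 of 7 rose and 1 fell, the latter being Cyp39a1, an oxysterol hydroxylase (-1.21, SE 0.236, adjusted p = 0.00196). Of 14 tested partners and other targets of the liver X receptors, 3 rose and 8 fell in Schwann cells. Arl4c, a small GTPase induced by these receptors, rose from 1.93 and 0.636 normalised CPM to 21.9 and 26.5 (4.23, SE 0.324, adjusted p = 4.31e-06, and 5.27 without Schwann cell uncrushed replicate 1) and by 2.02 in whole nerve (SE 0.14, adjusted p = 1.41e-06). Ppard, a fatty acid receptor, fell by 2.09 in Schwann cells (SE 0.148, adjusted p = 2.58e-06). In whole nerve 4 of 15 rose and 5 fell, and Ppara, its relative, had the largest fall (-1.74, SE 0.218, adjusted p = 0.000102). The lists were compared with backgrounds of 52.5% of genes called in Schwann cells and 45.6% in whole nerve on day 3, and the median over all genes tested was 0 in both.

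**Figure D4:**
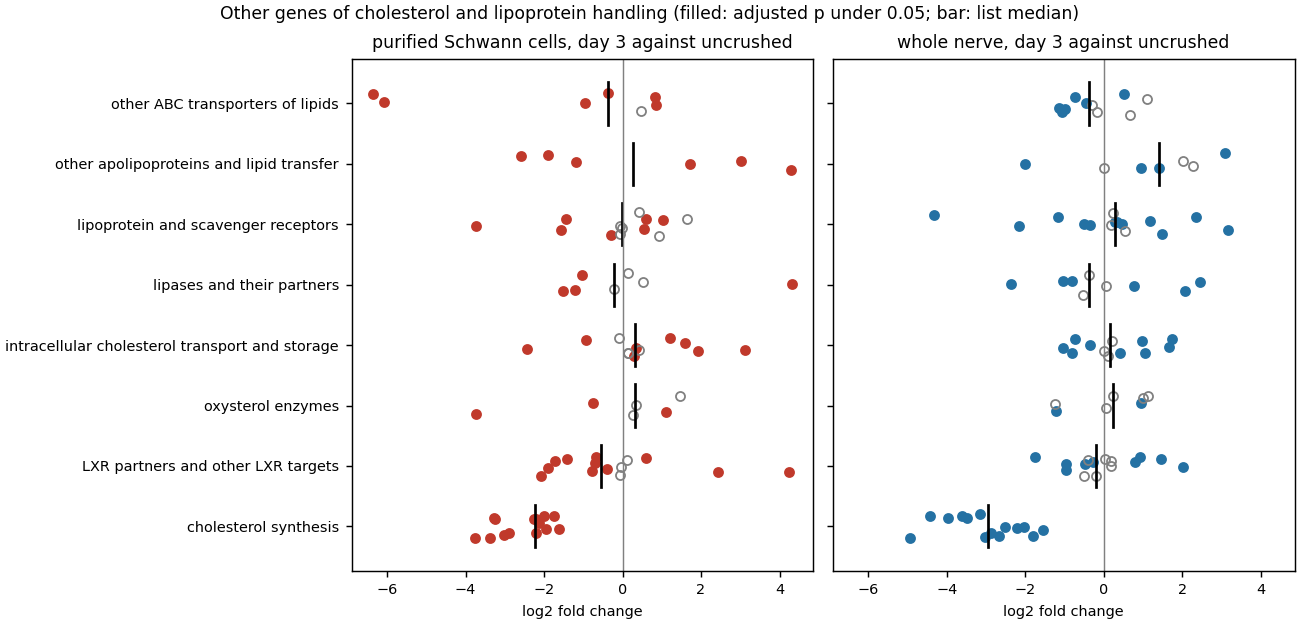
Log2 fold change on day 3 against uncrushed for each tested gene of the 8 pathway lists, in purified Schwann cells (left) and whole nerve (right). Filled points passed an adjusted p of 0.05, open points did not, and the black bar is the list median. The points of cholesterol synthesis all lie left of 0, with medians of -2.23 and -2.95, while the other lists spread to both sides.

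Genes with the course most like that of Abca1 over the 16 libraries, by Pearson correlation of log2 normalised CPM, were Tyw1 (r = 0.985), Tmem8a (0.982), Map2 (0.982), Rps6ka1 (0.98) and Slc22a23 (0.979). For Apoe they were C4a (0.986), Ddx60 (0.974), C1r (0.968), Pnpla3 (0.967) and Pla2r1 (0.966). These values are descriptions: the libraries fall into clusters by tissue and injury, and all genes of a library share its depth and preparation.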

How the data were processed

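The libraries were amplified from total RNA without molecular identifiers. The authors aligned reads to Rnor_6.0 with STAR and estimated with RSEM the expected counts per gene, deposited without normalization. The deposited FPKM values, also RSEM output of the authors, are relative to effective gene length and library total. Not used were 24 columns of per-sample values: a count matrix that repeats the same estimates, and a table of FPKM and co-expression modules whose column names give no tissue or library.

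Expected counts were rounded and tested with edgeR 4.0.16 in R 4.3.3 (TMM, filterByExpr, quasi-likelihood F test, Benjamini-Hochberg adjustment at 0.05), with 1 model for the 8 libraries of each tissue and 1 for all 16 for Schwann cells against whole nerve and for the difference of the crush effects. Standard errors were derived from the size of the log2 fold change and F. Alternatives were DESeq2 1.42.0, upper quartile scaling, other filters, leaving out each library, a replicate block, all 16 libraries in 1 fit and only the groups compared. Groups follow the labels. Nothing names separate cultures or animals behind replicates, so p-values measure the spread between 2 pools. Group values are mean ± SD. Counts of 3 or fewer were a floor, for counting error only. Depth was 10555067 to 27562637 expected counts. Promoter sequences are from RefSeq (GRCr8), with no genome used. Named genes were the 9, the called gene with the largest and smallest change of each list on day 3 in each tissue, and the 5 genes most like Abca1 and Apoe. One gene that this rule names is not reported here. The 9 genes and the lists were chosen with earlier results of these data known. Plots were drawn with matplotlib 3.10.9.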

Additional observations from a re-analysis of the deposited data

Results flagged for a closer look

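These results are listed because the effect of crush differed between purified Schwann cells and whole nerve in the interaction term of the edgeR fit on all 16 libraries, adjusted over all genes. Values are the log2 effect in Schwann cells minus that in whole nerve. On day 3 they were -3.77 for Apoe (adjusted p = 3.57e-08), 1.52 for Apod (0.0022), -1.15 for Scarb1 (0.00632) and -0.92 for Mylip (0.011). On day 5 they were -1.94 for Abcg1 (adjusted p = 0.00414), -3.89 for Apoe (2.75e-08), -2.31 for Lpl (0.00856), 0.94 for Nr1h2 (0.0026), -1.40 for Scarb1 (0.00153) and -1.18 for Mylip (0.00208). On day 7 they were -1.21 for Abcg1 (adjusted p = 0.0474), -4.38 for Apoe (2.01e-08), 0.73 for Nr1h2 (0.0141), -0.80 for Scarb1 (0.0426) and -1.11 for Mylip (0.00345). The day 7 calls of Abcg1 and Scarb1 were each kept in 5 of 13 alternatives, and that of Nr1h2 in 10 of 13. The 3 days share the uncrushed libraries, and each difference contains the Schwann cell contrast used in the choice of the genes. Apoe had effects of opposite sign in both tissues on every day, lower in injured Schwann cells and higher in injured whole nerve, with no overlap between injured and uncrushed libraries. Nr1h2 was higher in injured Schwann cells, and its whole nerve differences did not pass the threshold on any day and turned direction by mean FPKM on all 3 days.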

How the results depend on the processing

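Of the single gene results under the alternatives that kept all libraries, 919 kept direction and call or, where no test was given, stayed within the replicate spread. Another 22 lost and 13 gained a call, and 9 moved by more than the replicate spread. When 1 library was left out, 649 kept direction and call or, where no test was given, stayed within the replicate spread, 58 lost and 5 gained a call, 19 moved and 9 tested values changed sign. These 9 sign changes were in whole nerve, in differences from uncrushed that did not pass in the full fit: without uncrushed replicate 2, Nr1h3 was -0.19, -0.27 and -0.14 on days 3, 5 and 7, Scarb1 -0.06 on day 3 and Lpl -0.06 on day 5. Without replicate 1 of the injured day, Scarb1 was -0.11 on day 3, Lpl -0.03 and Nr1h3 -0.05 on day 5, and Nr1h3 -0.01 on day 7. Over all left-out libraries the highest values were 0.67, 0.58 and 0.71 for Nr1h3 on days 3, 5 and 7, 0.41 for Scarb1 on day 3 and 0.48 for Lpl on day 5. Among the differences given without a test, which are counted above as kept or moved, Abcg1 in Schwann cells also turned, to 0.45 on day 3 and 0.41 on day 7 without uncrushed replicate 1, and to 0.19 on day 7 without day 7 replicate 1.

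Counts of called genes changed most between injured days. In Schwann cells from day 5 to day 7 the 291 genes became 536 in DESeq2, 1048 with no filter, 472 with all 16 libraries in 1 fit, 441 with only the groups compared and 179 with the replicate block. In whole nerve from day 5 to day 7 the 1172 genes became 2247 with no filter, and members called 3. Members called from day 3 to day 5 were 2 with no filter in Schwann cells, and in whole nerve 4 with no filter, 4 with only the groups compared and 1 with all 16 libraries. The members whose crush effect differed on day 7 numbered 3 with upper quartile scaling. Leaving out 1 library gave these ranges: 541 to 737 genes and 0 to 2 members for Schwann cells on day 5 against day 3, 31 to 123 genes on day 7 against day 5, and 1533 to 2182 genes and 1 to 2 members on day 7 against day 3. In whole nerve they were 510 to 652 genes and 0 to 1 members, 323 to 862 genes, and 1635 to 2516 genes and 1 to 3 members. For the crush effect on day 7 they were 3 to 6 members. These fits have fewer samples. Where a group kept 1 library, it was assumed to vary like the others. The cause of the other changes was not tested.

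Upper quartile scaling shifted the median of all genes by 0.137 and 0.103 for Schwann cells against whole nerve on days 5 and 7, and the share of higher calls from 60.5% to 71.3% for Schwann cells from day 5 to day 7. Within a tissue, same-numbered libraries of different time points did not deviate together (r between -0.05 and 0.054 in Schwann cells and between -0.058 and 0.084 in whole nerve, 0 of 6 pairs over 0.1 in each). Schwann cell and whole nerve libraries of the same number were not compared in this way, so pairing between the tissues was not tested. The block is given only as a setting. Depth limits Abcg1, Nr1h3 and Lpl in Schwann cells, with as few as 16, 8 and 16 counts.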
